A study of Homo sapiens with 6 samples.

Results

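TRIM genes encode the tripartite-motif proteins. Here they are the rows of the deposited gene table whose symbol is TRIM, a number and optional letters, with a value above 0 in at least 3 of the 6 libraries. Of 17187 rows, 52 had such a symbol and 47 met the rule. The other 5 (TRIM10, TRIM17, TRIM29, TRIM53AP and TRIM55) had reads in at most 2 libraries. RNA came from HT-1080, an established human fibrosarcoma line obtained from ATCC, labelled WT and grown in EMEM. The 3 control libraries came from cells given PBS. The 3 treated libraries came from cells exposed for 8 h to recombinant IFNg (interferon gamma, a cytokine of T cells and natural killer cells) at 10 ng/ml. The model is 1 tumour cell line, without immune cells. The labels do not tell whether the libraries are separate cultures, so each p-value reflects only how far these libraries spread, which may be technical.

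A TRIM protein typically carries a RING finger, which recruits ubiquitin-conjugating enzymes, followed by B-box domains and a coiled coil through which the proteins pair. The C-terminal end, often a PRY-SPRY domain, usually decides what is bound, such as a viral capsid or an antibody. Many members are ubiquitin ligases, and several are known interferon-inducible genes that restrict viruses or tune the sensing of foreign nucleic acid. Others act in transcription, on microtubules or in muscle. Promoters that respond to interferon gamma are known for 2 kinds of element. One is the gamma-activated site (GAS), and the other is built from repeats of GAAA and bound by IRF1, a transcription factor that the cytokine induces.

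After IFNg, 8 TRIM genes were higher: TRIM22, TRIM21, TRIM56, TRIM14, TRIM38, TRIM25, TRIM26 and TRIM44. None was called lower. Over all genes tested, 3.27% were called higher and 1.05% lower. The increases ran from 5.82-fold for TRIM22 to 1.28-fold for TRIM44. The nuclear cofactors TRIM24, TRIM28 and TRIM33 and the microtubule-linked members were not among them.

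Start-site sequences are shown for the 4 genes that rose and hold a match to GAAANNGAAA there, the IRF-type element searched for. Also shown are those of TRIM25, which rose and holds no such match in this window, and of TRIM5, which holds one and was not called. They are RefSeq windows of build GRCh38.p14, matched by symbol, from 250 bases before to 50 after the annotated start. Each reads 5′ to 3′ on the gene's own strand, and capitals mark matches to GAAANNGAAA on either strand, so that TTTCNNTTTC is marked too. The windows lie at chr11:4393653-4393952, minus strand (TRIM21), chr6:30213357-30213656, minus strand (TRIM26), chr9:98119173-98119472, minus strand (TRIM14), chr11:35662525-35662824, plus strand (TRIM44), chr11:5685025-5685324, minus strand (TRIM5) and chr17:56914000-56914299, minus strand (TRIM25).
TRIM21: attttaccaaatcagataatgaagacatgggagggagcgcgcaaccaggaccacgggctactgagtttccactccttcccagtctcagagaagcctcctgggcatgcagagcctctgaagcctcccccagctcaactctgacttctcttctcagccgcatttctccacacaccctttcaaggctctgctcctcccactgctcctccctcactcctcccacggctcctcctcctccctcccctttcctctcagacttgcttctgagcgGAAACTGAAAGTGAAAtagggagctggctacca
TRIM26: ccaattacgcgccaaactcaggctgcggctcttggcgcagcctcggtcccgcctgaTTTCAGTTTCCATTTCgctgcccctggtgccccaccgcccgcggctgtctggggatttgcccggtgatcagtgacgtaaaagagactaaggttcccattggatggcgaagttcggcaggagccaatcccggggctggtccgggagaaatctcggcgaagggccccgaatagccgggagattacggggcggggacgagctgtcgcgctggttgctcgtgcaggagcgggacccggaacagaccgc
TRIM14: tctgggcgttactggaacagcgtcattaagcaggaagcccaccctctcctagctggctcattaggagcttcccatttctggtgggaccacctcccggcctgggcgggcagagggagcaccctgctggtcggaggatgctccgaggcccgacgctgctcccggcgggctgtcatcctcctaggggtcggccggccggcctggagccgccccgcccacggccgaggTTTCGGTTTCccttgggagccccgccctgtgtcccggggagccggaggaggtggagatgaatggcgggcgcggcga
TRIM44: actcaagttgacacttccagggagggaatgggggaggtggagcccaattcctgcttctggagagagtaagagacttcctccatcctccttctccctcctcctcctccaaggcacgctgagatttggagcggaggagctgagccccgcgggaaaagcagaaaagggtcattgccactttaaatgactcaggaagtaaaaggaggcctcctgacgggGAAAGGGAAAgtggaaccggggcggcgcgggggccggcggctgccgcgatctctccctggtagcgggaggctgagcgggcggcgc
TRIM5: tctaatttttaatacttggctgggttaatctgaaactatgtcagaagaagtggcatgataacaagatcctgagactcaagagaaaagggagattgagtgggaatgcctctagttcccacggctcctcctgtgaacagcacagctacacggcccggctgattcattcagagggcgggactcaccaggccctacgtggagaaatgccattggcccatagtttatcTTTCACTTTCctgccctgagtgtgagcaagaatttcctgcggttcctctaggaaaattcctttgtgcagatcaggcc
TRIM25: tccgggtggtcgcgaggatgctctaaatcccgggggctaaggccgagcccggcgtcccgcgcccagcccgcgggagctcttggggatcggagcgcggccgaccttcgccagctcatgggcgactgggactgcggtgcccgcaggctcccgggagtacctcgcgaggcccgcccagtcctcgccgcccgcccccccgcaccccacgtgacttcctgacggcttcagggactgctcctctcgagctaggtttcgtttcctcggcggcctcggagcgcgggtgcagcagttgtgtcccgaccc

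TRIM21 holds 2 overlapping matches, which begin 17 and 23 bases after the annotated start. TRIM26 also holds 2, in the other orientation, at 194 and 188 bases before it. TRIM14 and TRIM5 each hold 1, likewise in the other orientation, at 26 and 27 bases before the start, and the match of TRIM44, in the same orientation as those of TRIM21, lies 35 bases before. A window was found for 35 of the 47 members. The IRF-type element was in 9 of them, 4 of the 7 windows of genes that rose and 5 of the 28 of genes not called (TRIM2, TRIM5, TRIM16, TRIM34 and TRIM69). TRIM38 and TRIM56 rose and, like TRIM25, hold no match in their windows. No window was found for TRIM22, so whether it holds either element is not known here. Of all 27305 RefSeq windows of 300 bases, 3.65% hold it. The GAS letters TTCNNNGAA, which read the same on both strands, were in 3 of 35 windows (TRIM2, TRIM3 and TRIM16), in 0 of the 7 of genes that rose, and in 7.88% of all windows. A match is a run of letters and not a measured binding site. Runs with another spacing or with other letters were not counted, so a window without a match may still hold a related element.

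The deposited values are whole reads divided by a scaling factor for each library. They are called normalised read counts below and are not divided by gene length. Libraries held 59556948 to 83501954 reads, of which TRIM members took 0.206% to 0.233% in controls and 0.266% to 0.271% in IFNg. Of the 47, 41 had over 1000 reads over the 6 libraries and 5 had under 100. The cytokine response was present in each treated library, with IRF1 at 395 to 995 in controls and 26296 to 30650.5 in IFNg. Among the 5 mesenchymal markers in the table VIM (314888 to 406141), CD44 and FN1 were abundant, while S100A4 and NT5E reached at most 83.5. THY1 was not analysed here. The 4 leukocyte markers in the table summed to 11.7 to 50.1 in controls and 30.1 to 59.5 in IFNg. PTPRC was at 0 in 2 libraries, and CD3E and CD14 in all controls. The 3 endothelial markers summed to at most 45.5, and KRT5, the 1 epithelial marker in the table, had reads in 1 library.

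In limma over 15546 genes, with a Benjamini-Hochberg adjusted p up to 0.05 as the threshold, 8 of 47 members were higher, against 3.27% of all genes. Increases of at least 2-fold were called in 4 members (TRIM22, TRIM21, TRIM56 and TRIM14) and in 1.77% of all genes. The 0 members called lower compare with 1.05% of all genes. At an unadjusted limma p under 0.05, 4 members were lower (6.46% of all genes). edgeR on the recovered reads also called 0 members lower, where it called 1.22% of all genes lower. DESeq2, which is not used as support here, called 0 members and 2.23% of all genes lower. IFNg libraries lay wholly above the controls in 11 members (10.7% of all genes) and wholly below in 8 (9.28%). The median log2 difference was -0.01 over the 47 members and -0.01 over all genes tested. In bulk libraries such as these, a change in every cell and a change in some of them cannot be told apart.

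TRIM22, a ligase known for restricting retroviruses and influenza virus, had the largest difference among the members. Its normalised read count was 2195, 1775 and 1788 in control 1, 2 and 3, and 10412, 11068 and 12032 in IFNg 1, 2 and 3. All IFNg libraries stood far above all controls. The mean rose from 1919 ± 239 to 11170.4 ± 815 (SD, n = 3 each). On the scale of log2(value + 1), IFNg minus control, used for every log2 difference here, this is 2.55 ± 0.11 (SE), with a limma adjusted p of 3.02e-08.

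TRIM21 is the cytosolic antibody receptor that binds antibody-coated viruses. Its counts were 1291, 1441 and 1284 in the controls and 6641, 7155 and 6728 in IFNg. Both groups were tight and far apart, at 1339 ± 89.0 and 6841 ± 275 (SD, n = 3 each). The fold was 5.11 and the log2 difference 2.35 ± 0.11 (limma adjusted p = 3.28e-08).

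TRIM56, a ligase that inhibits RNA viruses and supports signalling from nucleic acid sensors, came next. Its counts were 1748, 2186 and 1908 in the controls and 5319, 5717 and 4671 in IFNg. The lowest IFNg library was above the highest control. This 2.69-fold increase had a log2 difference of 1.43 ± 0.12 and a limma adjusted p of 1.29e-05.

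TRIM14 lacks a RING and serves as a mitochondrial adaptor in signalling from MAVS. It was at 4256, 4084 and 4208 in the controls and at 7934, 9504 and 8696 in IFNg. The controls were close together and the IFNg libraries more spread. The increase was 2.08-fold (log2 difference 1.05 ± 0.10, limma adjusted p = 2.37e-05). Exons of TRIM14 overlap those of NANS on the other strand in GENCODE 29, and whether reads were counted by strand is not given in the sources used here. NANS itself differed by 0.06 on the log2 scale (limma adjusted p = 0.869).

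TRIM38, known as a brake on inflammatory signalling, had 2385, 2854 and 2700.1 in the controls and 5059, 4811 and 5257 in IFNg. These groups were well apart. Its 1.91-fold increase corresponds to 0.93 ± 0.11 on the log2 scale (limma adjusted p = 0.000176).

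TRIM25, the ligase that ubiquitinates the RNA sensor RIG-I, had 12946, 13858 and 12542 in the controls and 19442, 19738 and 21913 in IFNg. The groups did not overlap, and the relative increase was 1.55-fold (log2 difference 0.63 ± 0.09, limma adjusted p = 0.000832). Its exons overlap those of C17orf67 on the same strand and of DGKE on the other. C17orf67 differed by 0.51 ± 0.39 and DGKE by -0.01 ± 0.15, neither past the threshold.

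TRIM26, a ligase gene of the MHC region, had 1610.1, 1586 and 2245 in the controls and 3238, 3224 and 4267 in IFNg. Library 3 was the highest in both groups, and the groups still did not overlap. The increase was 1.97-fold (log2 difference 0.99 ± 0.16, limma adjusted p = 0.00324). In limma without a variance trend it no longer passed (adjusted p = 0.108).

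TRIM44 lacks a RING and carries a zinc finger of the kind found in ubiquitin-specific proteases. It had 8857, 8411 and 7909.6 in the controls and 10614, 10835 and 10765 in IFNg. The groups did not overlap, but the difference was small at 0.36 ± 0.09 on the log2 scale (limma adjusted p = 0.0361). It did not pass when control 2 (0.147), IFNg 1 (0.139), IFNg 2 (0.174) or IFNg 3 (0.0916) was left out, nor without a variance trend (0.168; adjusted p in each case). The other 7 passed without each library in turn.

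**Figure D1:**
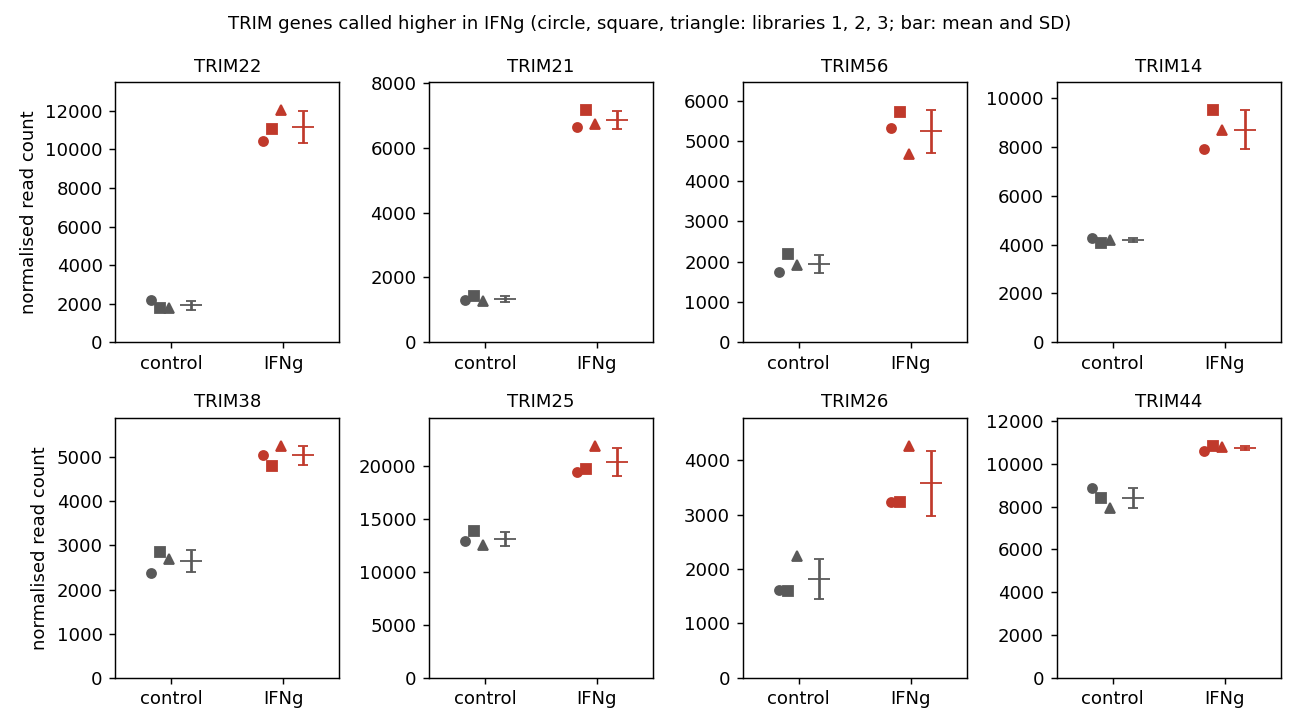
Normalised read count (y axis, linear from 0) of the 8 TRIM genes called higher, in control (grey) and IFNg (red) libraries 1, 2 and 3 (circle, square, triangle), with the mean and SD of 3 libraries beside them. In every panel the lowest IFNg library lies above the highest control, by a wide gap for TRIM22 (10412 against 2195) and a narrow one for TRIM44 (10614 against 8857).

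Of 11 members commonly described as interferon-linked, 7 rose and 4 did not pass, against 3.27% of all genes called higher. This list was written with earlier results of these data known. TRIM5, which binds incoming retroviral capsids, had 5174, 4706 and 3723 in the controls and 5804, 5832 and 4935 in IFNg. Library 3 was the lowest in both groups, and IFNg 3 lay below control 1. The log2 difference was 0.29 ± 0.13 (limma adjusted p = 0.305). It passed with a term for the libraries numbered 3, a fit added after the data were seen (adjusted p = 0.0359), but not with those libraries left out (0.147).

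TRIM6, a ligase whose ubiquitin chains activate the kinase IKBKE, had 396, 494 and 259.9 in the controls and 144, 275 and 366 in IFNg. The groups overlapped (log2 difference -0.60 ± 0.36, limma adjusted p = 0.488). Without both libraries numbered 3 the difference was -1.15 (adjusted p = 0.0564). TRIM34 and TRIM69, both with reported antiviral activity, were barely read. TRIM34 had 5, 11 and 7 reads in the controls and 13, 5 and 0 in IFNg. TRIM69 had 6, 0 and 9 reads in the controls and 0, 23 and 12 in IFNg. The IFNg to control ratio of pooled reads, scaled by the library factors, was 0.850 for TRIM34 (95% exact Clopper-Pearson interval 0.432 to 1.65) and 2.53 for TRIM69 (1.35 to 4.995). These intervals cover counting error only. Over libraries, neither passed (limma adjusted p = 0.799 and 0.864).

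TRIM5, TRIM6, TRIM34 and TRIM22 follow each other in the RefSeq order of protein-coding genes, apart from the readthrough gene TRIM6-TRIM34, which is not a member. Of these 4, TRIM22 alone was called. The log2 ratio of TRIM22 to TRIM5 was -1.24, -1.41 and -1.06 in the controls and 0.84, 0.92 and 1.29 in IFNg. This ratio changed by 2.25 without overlap between the groups, and that of TRIM22 to TRIM6 by 3.15. TRIM26 and TRIM39 are also next to each other. TRIM39, a ligase linked to the cell cycle, had 806, 919.5 and 769.9 in the controls and 662, 772 and 741 in IFNg (limma adjusted p = 0.653). The log2 ratio of TRIM26 to TRIM39 went from 1.11 ± 0.39 to 2.29 ± 0.23 (SD, n = 3 each). That of TRIM26 to TRIM27 changed by 0.89, and that of TRIM21 to TRIM68, which are on the same chromosome but not adjacent, by 2.195. Each of these 5 ratios, a set chosen after the values were seen, had a 2-sided exact permutation p of 0.1. This is the smallest that 3 against 3 libraries allow (0.1 after adjustment over the 5). Same-strand exon overlaps also exist for TRIM22 (with OR56B1), TRIM5 (with AC104389.4) and TRIM39 (with TRIM39-RPP21), and their part in the ratios was not tested.

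**Figure D2:**
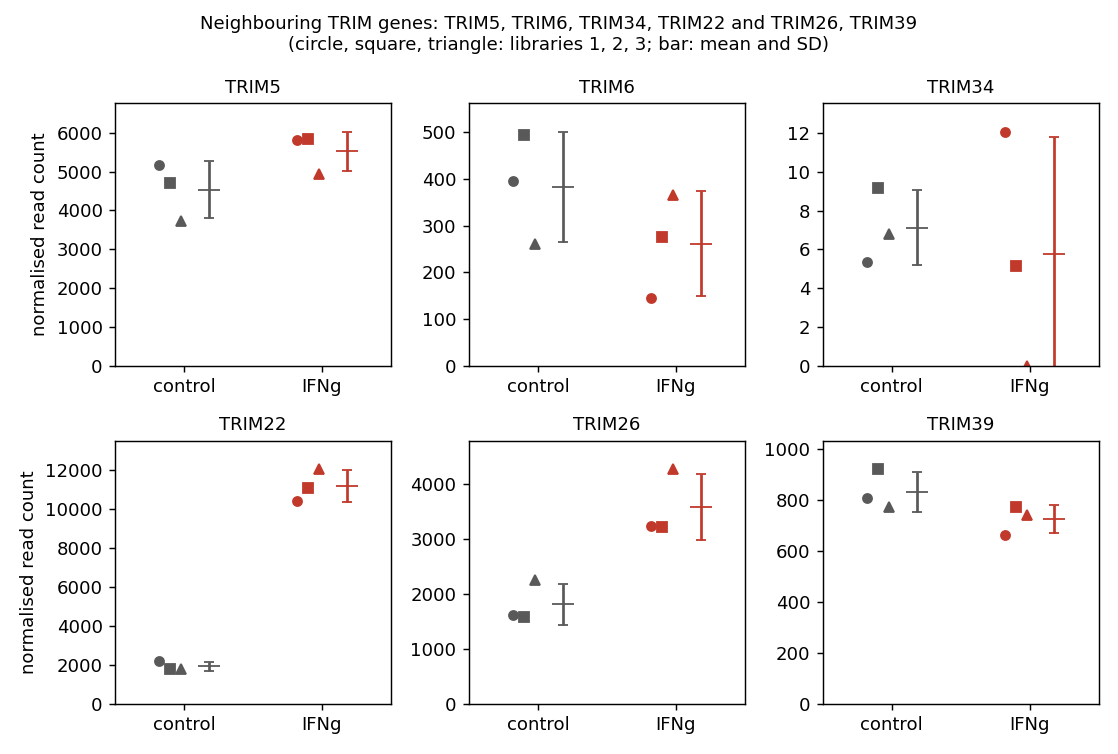
Normalised read count (y axis, linear from 0) of neighbouring TRIM genes in control (grey) and IFNg (red) libraries 1, 2 and 3 (circle, square, triangle), with mean and SD of 3. TRIM22 and TRIM26 do not overlap between groups, whereas TRIM5, TRIM6, TRIM34 and TRIM39 do; TRIM34 reaches at most 12.1 and its lower SD bar in IFNg runs past 0.

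Of 7 listed genes in and near the MHC region, 3 were tested and TRIM26 was called higher, as were 3.27% of all genes. TRIM27 (6379 ± 349.8 and 6839 ± 457; log2 difference 0.10 ± 0.09) and TRIM39 were not. TRIM10 had 5 reads in control 3 and 16 in IFNg 1 and none elsewhere. TRIM15, TRIM31 and TRIM40 were not analysed here.

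Among the 8 members listed for other steps of innate signalling, 0 passed in limma. Over all genes, 3.27% were called higher and 1.05% lower, so a list this short would often hold no call. The list was written with earlier results of these data known. TRIM14, TRIM25, TRIM38 and TRIM56, which also act in such signalling, were in the interferon-linked list. TRIM8, which activates NF-kB signalling, had 9960.3, 9935 and 9165 in the controls and 8896, 8526 and 7261 in IFNg. Every IFNg library was below every control, yet the log2 difference of -0.24 ± 0.10 did not pass (limma adjusted p = 0.266). TRIM23, which also carries an ARF-type GTPase domain, was 1558 ± 108 and 1317 ± 124 (-0.24 ± 0.14), and TRIM13, anchored in the endoplasmic reticulum, 3067 ± 60.4 and 2775 ± 223 (-0.15 ± 0.11). Both, like TRIM8, had IFNg libraries wholly below the controls, as did 9.28% of all genes. TRIM65, a ligase for the RNA sensor MDA5, differed by 0.20 ± 0.14, and TRIM68 by 0.16 ± 0.16. TRIM32 (-0.03 ± 0.09) and TRIM4, another RIG-I ligase (-0.01 ± 0.18), were close to 0.

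The 3 listed nuclear cofactors, which have a PHD finger and a bromodomain, did not pass either. TRIM28, the corepressor that KRAB zinc finger proteins use to silence retroelements, had 37821, 44682 and 54048 in the controls and 45968, 45174 and 44076 in IFNg. The IFNg libraries fell inside the wider range of the controls. The log2 difference was 0.00 ± 0.12 for TRIM28, -0.02 ± 0.09 for TRIM24, a nuclear receptor cofactor, and -0.05 ± 0.09 for TRIM33, which acts in SMAD signalling (limma adjusted p of 0.998, 0.965 and 0.863). The sign of all 3 depended on single libraries.

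By structure, 5 of the 23 members in the class with a RING and a PRY-SPRY domain rose (TRIM22, TRIM21, TRIM26, TRIM38 and TRIM25). So did 2 of 5 members without a RING and 1 of 4 with no known C-terminal domain. None of the 4 COS-box members, the 3 PHD-bromodomain members, the 3 NHL-repeat members or the 5 members with another single domain passed. Over all genes, 3.27% were called higher and 1.05% lower, so classes this small would often hold no call. Each member was counted in 1 class only. TRIM9, TRIM36 and TRIM46, in the COS-box class, also have a PRY-SPRY domain. Of those lacking a RING, TRIM14, TRIM16 and TRIM16L also have one, and TRIM66 has a PHD finger and a bromodomain. Of the 39 members not called, 33 had a log2 difference smaller than 0.5 in size.

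Several of those not called had groups that did not overlap, as 10.7% of all genes did with IFNg higher and 9.28% with IFNg lower. TRIM2, an NHL-repeat ligase known from neurons, had 2209, 2054 and 2080.1 in the controls and 2599, 3373 and 2525 in IFNg. IFNg 2 was well above the other IFNg libraries. Its log2 difference of 0.41 ± 0.13 missed the threshold (limma adjusted p = 0.128) but passed without both libraries numbered 3 (0.0458). TRIM45, which has a filamin domain, had 836, 900.3 and 882 in the controls and 708, 611 and 541 in IFNg (-0.50 ± 0.17, adjusted p = 0.165). TRIM16, which takes part in the autophagy of damaged membranes, had 1898, 1877 and 1677 and then 1603, 1400.0 and 978 (-0.48 ± 0.18, adjusted p = 0.198). IFNg 3 was the lowest of these, and without it the difference was -0.28. TRIM16L, a shorter copy of TRIM16 that may share reads with it, was 1157 ± 224 and 867 ± 231.

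Other PRY-SPRY members lay on both sides of 0. These, and the COS-box and other members below, were picked for mention after their values were seen. TRIM47 had 329, 475 and 745 in the controls and 684, 652 and 855 in IFNg. Its log2 difference of 0.57 ± 0.27 did not pass (limma adjusted p = 0.355) and moved with single libraries. Without control 3, the highest control, it was 0.87 and passed (0.0412), whereas without control 1, the lowest, it was 0.29 (0.692). TRIM62 was 498 ± 50.3 and 359 ± 28.1 (-0.47 ± 0.21). Its groups did not overlap, nor did those of TRIM11 (-0.27 ± 0.15) and TRIM41 (-0.19 ± 0.12). In 9.28% of all genes IFNg libraries likewise lay wholly below the controls. The groups of TRIM7, known as a partner of glycogenin (0.32 ± 0.24), TRIM58, an erythroid ligase (0.24 ± 0.18), and TRIM35 (-0.05 ± 0.16) overlapped.

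TRIM36 and TRIM46, COS-box members that bind microtubules, were 308 ± 10.0 and 387 ± 10.8 (TRIM36) and 195 ± 28.9 and 211 ± 30.8 (TRIM46). TRIM36 did not overlap between groups, as with 10.7% of all genes in this direction, but had a limma adjusted p of 0.532. TRIM9, a neuronal member, was 114 ± 42.1 and 151 ± 59.8. TRIM59, which has a transmembrane segment, was at 1248, 1149 and 1773 in the controls and 873, 904 and 1535 in IFNg, with library 3 highest in both groups. TRIM3 (-0.19 ± 0.17), TRIM37 (-0.03 ± 0.11), TRIM52 (-0.04 ± 0.19), TRIM61 (-0.33 ± 0.26) and TRIM66 (0.17 ± 0.16) did not pass either.

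TRIM54, TRIM72 and TRIM60 were at the limit of detection. TRIM54, a muscle member, had 2, 2 and 4 reads in the controls and 0, 1 and 31 in IFNg, so its IFNg reads came almost wholly from IFNg 3. TRIM72, known for repair of the muscle cell membrane, had 6, 3 and 2 reads and then 8, 6 and 0. TRIM60 had 4, 5 and 0 reads in the controls and 6, 0 and 0 in IFNg. The scaled ratio of pooled reads was 4.35 (1.96 to 10.9) for TRIM54, 1.38 (0.583 to 3.37) for TRIM72 and 0.724 (0.212 to 2.28) for TRIM60 (95% exact Clopper-Pearson intervals, for counting error only). Over libraries none of the 3 passed (limma adjusted p = 0.959, 0.981 and 0.885).

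**Figure D3:**
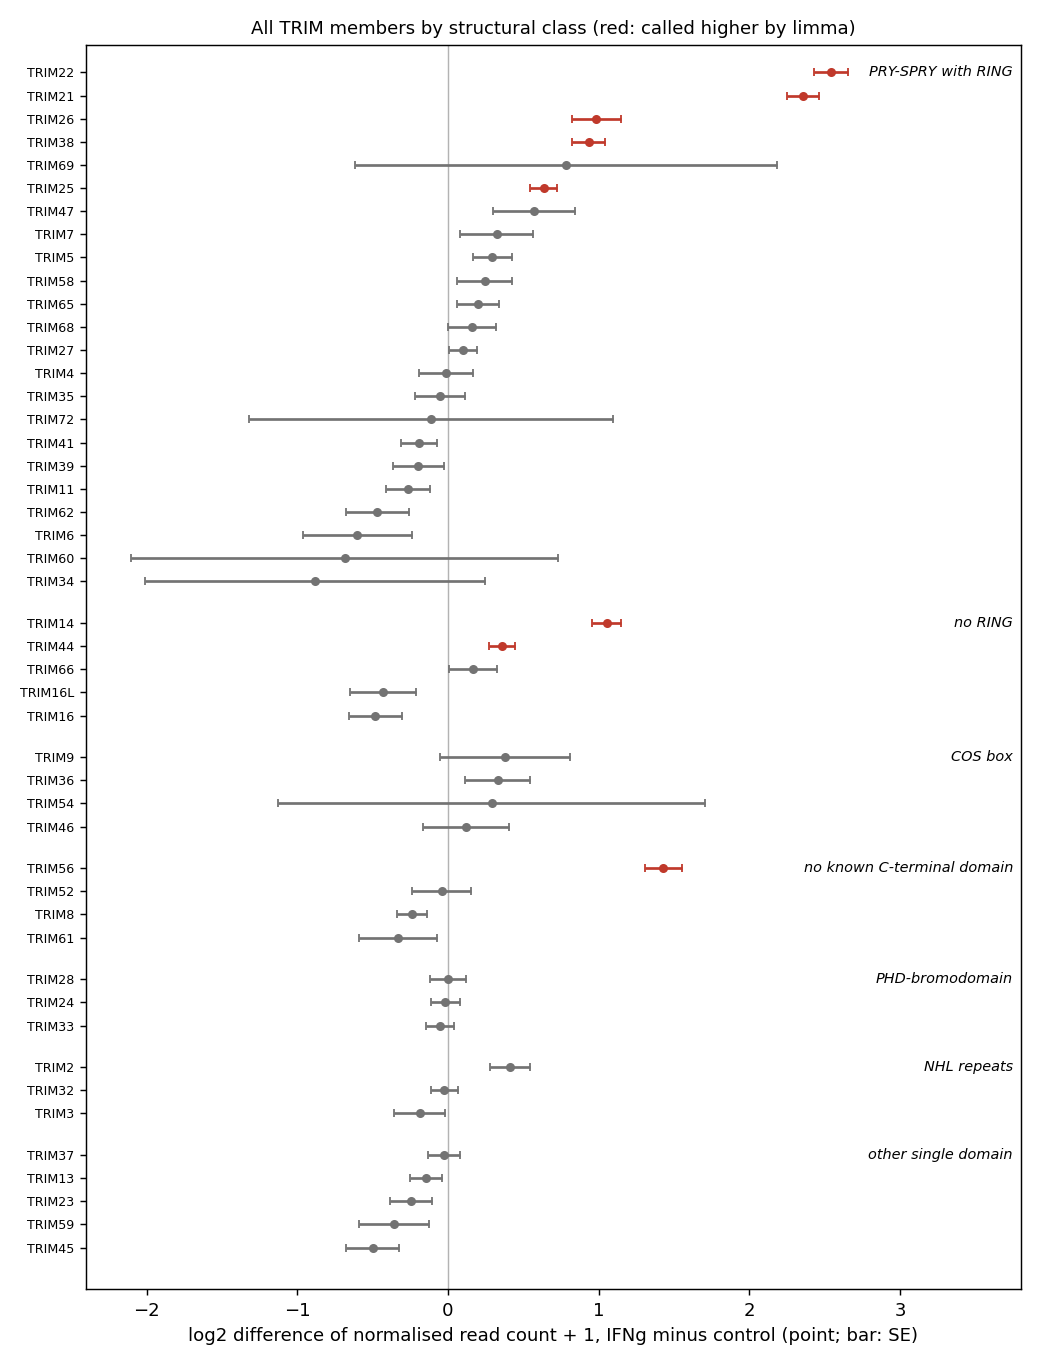
Log2 difference of normalised read count plus 1, IFNg minus control (x axis; point, with SE as the bar), for the 47 TRIM members (y axis) in 7 structural classes. The 8 members called higher (red) reach 2.55, 33 of the 39 others (grey) lie within 0.5 of 0, and the widest bars belong to the 5 members with under 100 reads.

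Library 3 stood apart from libraries 1 and 2 in the same direction in both groups for some members. It was the highest in both groups in 9 members (18.2% of all genes tested) and the lowest in both in 9 (also 18.2%). TRIM26 and TRIM59 belong to the first kind and TRIM5, TRIM8 and TRIM16 to the second. Beyond the fits given with them, its part in their differences was not tested.

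Levels of different members can be compared only per length, here per kb of merged GENCODE 29 exons, which were found for all 47. The authors' gene models may differ from these. TRIM28 was far above the rest, at 11283 ± 2019 normalised reads per kb in controls and 11173 ± 235 in IFNg (SD, n = 3 each). It made up 23.6% to 34.0% of all TRIM reads in a library. TRIM25 (1380.4 ± 71.0) and TRIM32 (1314 ± 19.3) followed in controls, where they did not differ from each other beyond their spread. In IFNg, TRIM21 moved from rank 10 to rank 2 at 3547 ± 143 per kb and TRIM25 from rank 2 to rank 3 at 2143 ± 142. TRIM22 moved from rank 21 to rank 4 (319 ± 39.7 to 1856 ± 135), and TRIM14 from rank 7 to rank 5. TRIM56 moved from rank 33 to rank 16 and TRIM38 from rank 22 to rank 15. At the bottom, TRIM72 (0.427 ± 0.287 and 0.535 ± 0.469), TRIM60 (0.923 ± 0.799 and 0.608 ± 1.05) and TRIM69 (0.546 ± 0.490 and 1.36 ± 1.29) rested on few reads and did not differ beyond their spread.

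**Figure D4:**
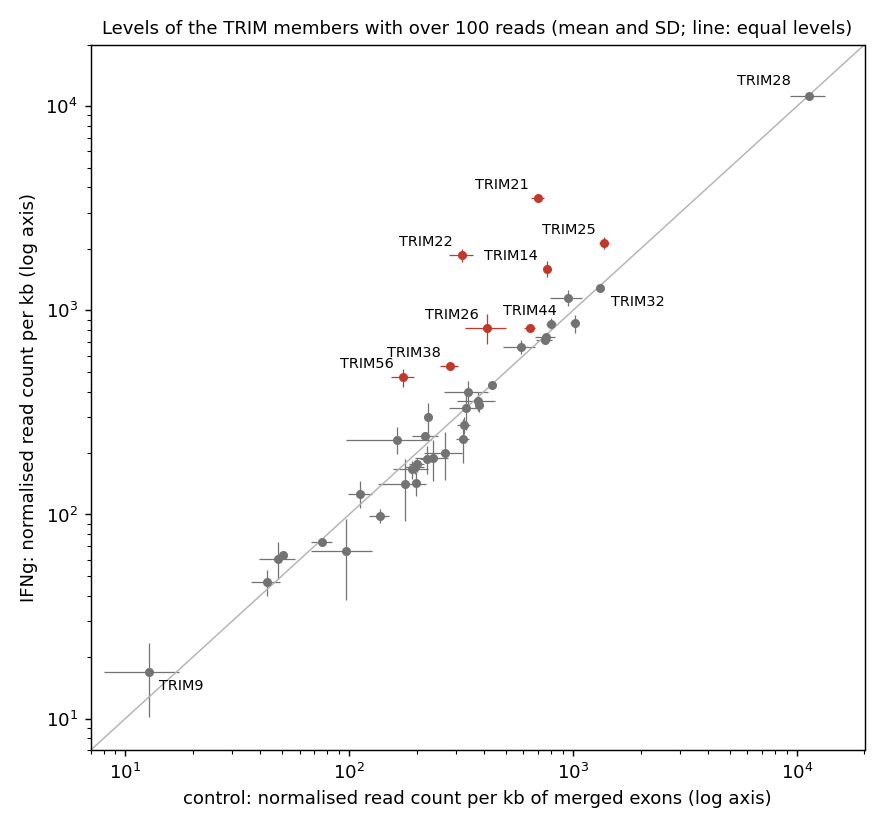
Mean normalised read count per kb of merged exons in IFNg (y axis, log) against control (x axis, log) for the 42 TRIM members with over 100 reads, with the SD of 3 libraries as bars and a line of equal levels. The 8 members called higher (red) lie above the line, TRIM21 at 3547 against 694 and TRIM22 at 1856 against 319, while TRIM28 sits on it at the top right.

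Some tripartite-motif proteins and close relatives have other names. Of 6 such genes in the table, PML, the organiser of nuclear bodies, rose from 4482 ± 577 to 15227 ± 373. Its log2 difference was 1.77 ± 0.11, with a limma adjusted p of 4.98e-07. The other 5 did not pass, where 3.27% of all genes were called higher and 1.05% lower. The microtubule proteins MID1 and MID2 differed by -0.07 ± 0.13 and -0.04 ± 0.14, and RNF135, a RIG-I ligase, by -0.04 ± 0.15. MEFV, the gene of pyrin, had 87.8, 64.3 and 64.2 in the controls and 25.1, 54.8 and 53.3 in IFNg. Its groups did not overlap, as with 9.28% of all genes in this direction (limma adjusted p = 0.523). TRIML2 had 1841, 1705 and 624 and then 1001, 676 and 612, with control 3 far below the other controls (limma adjusted p = 0.341). It was called lower without both libraries numbered 3 (-1.11, adjusted p = 0.0019), with the replicate block (0.0102) and with a term for libraries 3 (0.0271), and with 1 library left out its adjusted p ran from 0.00213 to 0.761.

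Of 30 measured partners of TRIM proteins, 5 rose and 0 were called lower in limma, against 3.27% and 1.05% of all genes. This list, too, was written with earlier results of these data known. The sensor RIG-I (DDX58), a substrate of TRIM25, rose from 1559 ± 141 to 5059 ± 556, and IFIH1, which encodes MDA5, the substrate of TRIM65, from 419 ± 163 to 2953 ± 210.3. UBE2L6, the conjugating enzyme for ISG15, rose from 1914 ± 355 to 16901 ± 943, and ISG15 itself from 213 ± 6.95 to 1055 ± 29.6. ZC3HAV1, the zinc finger antiviral protein that works with TRIM25, rose from 5532 ± 768 to 9276 ± 185 (limma adjusted p = 0.00105, but 0.0627 without a variance trend). The ubiquitin-conjugating enzymes of the UBE2D, UBE2N, UBE2V and UBE2W kinds, which RING ligases use, did not pass. UBE2D1 came closest (1708 ± 190.2 and 2385 ± 76.8; adjusted p = 0.0505) and passed in several alternatives, while UBE2N, which serves TRIM5 and TRIM21, differed by 0.14 ± 0.10. MAVS (-0.15 ± 0.10), TBK1 (0.10 ± 0.11) and the TRIM28 partner SETDB1 (0.06 ± 0.12) did not pass.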

How the data were processed

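RNA of 6 HT-1080 libraries was measured. Per the labels' protocols, ribosomal RNA was removed from total RNA, and stranded libraries were read as paired ends of 50 cycles. Builds hg19 and GRCh37 appear in the submitters' processing notes, as do Cuffdiff 2.2.1, Cufflinks, TopHat2 2.0.13 and FastQC 0.11.3, with no order or role. The sources used here do not give the counter or its use of strand. The deposited signal is named RPKM, but 100% of positive values in each library were whole multiples of 1 step (tolerance 0.001 reads), so the authors' values are reads over 1 factor per library.

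The main test was limma 3.58.1 (R 4.3.3) on log2(value + 1), 2-sided, with a variance trend and no block. It covered the 15546 genes whose value reached 0.5 in 3 or more libraries, with Benjamini-Hochberg adjustment over all of them. All 47 members passed this filter. Alternatives were edgeR 4.0.16 and DESeq2 1.42.0 on the recovered reads, other pseudocounts, filters and scaling, a replicate block and left-out libraries. The tools were tested on simulated data: limma and edgeR made false calls slightly above the nominal rate, and DESeq2 more than either, so DESeq2 supports no result here. The pass limits of that test were revised after a first draw failed them, and it was then pooled over several draws. Libraries of 1 group differed by more than counting noise. The labels do not say that same-numbered libraries share a culture or day, so the numbers were not treated as pairs. Deviations of same-numbered libraries correlated at 0.04, 0.02 and 0.11. With a replicate block, however, calls over all genes went from 672 to 1464, so these correlations do not settle whether such libraries are linked.

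The members and lists were chosen with earlier results of these data known. Members named by rule were those called, those of 4 lists (interferon-linked, nuclear cofactors, MHC region, innate signalling), the 5 uncalled with the smallest adjusted p and the 3 uncalled with the largest difference. Start-site windows and gene order were from RefSeq (GRCh38.p14), and exon lengths from GENCODE 29.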

Additional observations from a re-analysis of the deposited data

How the results depend on the processing

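The 8 TRIM genes called higher numbered 6 to 10 in the refits across all genes (7 to 9 with 1 library left out). TRIM22, TRIM21, TRIM56, TRIM14, TRIM38 and TRIM25 were called in every one of these refits. For TRIM25 this was narrow in limma without a variance trend (adjusted p = 0.0489). The exact permutation test cannot go below 0.1 here. The replicate numbers share no labelled source. With the replicate block, 9 members were higher and 1 lower, adding TRIM2 and TRIM16. With a term for libraries numbered 3, added after the data were seen, 2 were lower (TRIM16 and TRIM8) and 10 higher. Over all genes, 672 were called, against 320 without a variance trend, 1048 with DESeq2, 1464 with the replicate block, 1481 without libraries 3, 1539 with the term for them, and 386 to 1302 with 1 library left out (the highest without control 3). Without libraries 3, log2 differences changed sign for TRIM24 (0.0159), TRIM34 (0.16), TRIM4 (0.0281), TRIM54 (-1.02) and TRIM72 (0.61). TRIM72 also did with pseudocount 5 (0.0749) and DESeq2 (0.34), and TRIM28 with edgeR (-0.0139) and DESeq2 (-0.0142). Leaving out 1 library at a time, the log2 differences that changed sign ranged as follows: TRIM24 -0.0386 to 0.00493, TRIM28 -0.12 to 0.13, TRIM33 -0.11 to 0.00558, TRIM34 -1.68 to 0.17, TRIM35 -0.22 to 0.0403, TRIM37 -0.11 to 0.0315, TRIM4 -0.15 to 0.17, TRIM46 -0.00382 to 0.21, TRIM52 -0.12 to 0.0294, TRIM54 -1.27 to 1.33, TRIM69 -0.25 to 2.204, TRIM72 -0.66 to 0.87. None of these members was called, and the cause was not tested. edgeR's filter left 42 members, so the 5 with under 100 reads had no test there.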
